A study of Mus musculus with 13 samples.

Results

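The replication-dependent histone genes were examined in bulk RNA-seq of mouse bone marrow cells that the labels call HSPCs, hematopoietic stem and progenitor cells. Their members were all genes whose symbol starts with Hist1h, Hist2h, Hist3h or Hist4h, and this gave 70 of the 55421 genes in the deposited count tables. The libraries fell into 4 groups by genotype: Setd2 knockout with Srsf2 mutated, called double mutant here (n = 3), Srsf2 mutated (n = 3), Setd2 knockout (n = 2) and wild type (n = 2). Setd2 encodes the methyltransferase that trimethylates histone H3 at lysine 36 along transcribed genes, and Srsf2 encodes a serine- and arginine-rich splicing factor. Only the 3 single-cell samples of the series, which were not analysed here, have a described model: Lin- c-Kit+ cells of Mx1-Cre+ mice carrying Setd2fl/fl and Srsf2P95H/+ alleles (the wild type carries Mx1-Cre alone), 4 weeks after induction of Cre by pIpC in a transplant setting. For the bulk libraries the labels give the genotype, the tissue and the cell type, and neither age, sex, strain, sort nor transplant. They do not say that the replicates came from separate mice, so every p below measures the spread between these libraries, which may be technical.

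Replication-dependent histones are the proteins that package newly made DNA: H2A, H2B, H3 and H4 form the nucleosome core, and the linker histone H1 binds the DNA between cores. Their genes stand in clusters, mostly lack introns, and are switched on in S phase through the coactivator NPAT. Their mRNAs are the metazoan mRNAs that end in a conserved stem-loop, bound by SLBP, in place of a poly(A) tail, and they are degraded when DNA synthesis stops. Some of these genes also yield polyadenylated transcripts that run on past the stem-loop, above all in differentiating cells. The labels call the libraries mRNA libraries and do not say whether poly(A) RNA was selected.

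Of the 70 members, 6 encode H1, 20 H2A, 19 H2B, 12 H3 and 13 H4, and 3 of the 70 are annotated as pseudogenes. On chromosome 13 of GRCm38, 24 members stand in a block at chr13:21715763-22043676, and 31 in another at chr13:23531050-23934851. The pseudogene Hist1h2al stands apart from both, at chr13:51202727-51203065. A further 10 are on chromosome 3, 3 on chromosome 11 and 1, Hist4h4, on chromosome 6. The tested set held 53 members with enough counts, namely 5 of H1, 10 of H2A, 16 of H2B, 10 of H3 and 12 of H4. No count was listed in any library for 8 members (Hist1h2aa, Hist1h2ba, Hist2h2aa1, Hist2h2aa2, Hist2h2ab, Hist2h2bb, Hist2h3b and Hist2h3c1), and 9 others had at most 47 counts over all 10 libraries. Many members are near copies of each other. In 29 of the 70, and 16 of the 53 tested, under 50% of the 100-base words of their transcripts occur in no other transcript. The share was 0.0% in Hist2h2aa1, Hist2h2aa2, Hist2h2bb, Hist2h3b and Hist2h3c1, so their 0 counts do not show that they are silent. Of the other members at 0 counts, Hist2h2ab had 40.3%, Hist1h2aa 89.7% and Hist1h2ba 72.6%. Sums over members may lack reads of near copies. Reads from such members may be shared or lost in counting, and every value of theirs below is uncertain: Hist1h2ad, Hist1h2bk, Hist1h2bn, Hist1h3i, Hist1h4m and Hist1h4n are those named with values.

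The stem-loop is shown for the members on which the results turn, since members are grouped further on by what their annotated transcript holds beyond it. Sequences are from GENCODE M21 transcripts (GRCm38), 5′ to 3′ in the sense of the gene, with the stem and loop in capitals.
Hist1h1c: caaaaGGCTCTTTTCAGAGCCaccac
Hist3h2ba: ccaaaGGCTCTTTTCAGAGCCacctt
Hist3h2a: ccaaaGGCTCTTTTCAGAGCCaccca
Hist1h2bg: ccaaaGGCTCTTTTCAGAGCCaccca
Hist1h2ac: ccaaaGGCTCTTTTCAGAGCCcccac
Hist1h3c: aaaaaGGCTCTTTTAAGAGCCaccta
Hist1h4i: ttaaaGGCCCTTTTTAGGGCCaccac
Hist4h4: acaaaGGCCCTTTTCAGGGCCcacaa
Hist1h4m: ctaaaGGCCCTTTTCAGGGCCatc
The first 5 of these carry the same stem and loop, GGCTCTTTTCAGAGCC, which 26 members of the types H1, H2A, H2B and H3 share. H4 genes carry a form with other stem bases, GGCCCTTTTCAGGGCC in 7 members and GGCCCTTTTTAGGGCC in Hist1h4i and Hist2h4. Hist1h4a, Hist1h4b and Hist1h4j carry further forms, and none was found in Hist1h4k. The search used the letters GGNNNTTNTNANNNCC with 6 base pairs in the stem (G-U pairs allowed), on the transcript strand. It found a match in the transcripts of 46 of the 70 members (65.7%), against 0.172% of 58665 other coding transcripts. In the last 100 bases the match was in 23 members (32.9%) and in 2 other transcripts (0.00341%). In the other 23 members with a match the annotated transcript ran on for more than 100 bases: 169 bases in Hist3h2ba, 155 in Hist1h2bg, 330 in Hist1h4i, 840 in Hist1h1c, 1643 in Hist3h2a, 2010 in Hist1h2ac and 2445 in Hist4h4. Transcripts of Hist1h3c and Hist1h4m ended 74 and 3 bases past it. The transcripts of 24 members, among them Hist1h1b and Hist1h2bc, held no match. Some of these annotated transcripts are short, with 381 bases in Hist1h2bn and 312 in Hist1h4k. A missing match therefore does not show that the gene lacks a stem-loop. A poly(A) signal, spelled AATAAA or in its common other form ATTAAA, was in the last 100 bases of the longest transcript of 18 members (25.7%), against 52.7% of other coding transcripts.

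Promoters are shown for the 3 members with the largest increase in Srsf2 mutated libraries over wild type. They span 250 bases before to 50 after the annotated start (RefSeq, GRCm38.p6), and capitals mark motif letters on either strand: CCAAT for the CCAAT box, TATAAA for the TATA box, and for the octamer ATTTGCAT. All 3 genes are on the plus strand.
Hist3h2ba (chr11:58948661-58948960): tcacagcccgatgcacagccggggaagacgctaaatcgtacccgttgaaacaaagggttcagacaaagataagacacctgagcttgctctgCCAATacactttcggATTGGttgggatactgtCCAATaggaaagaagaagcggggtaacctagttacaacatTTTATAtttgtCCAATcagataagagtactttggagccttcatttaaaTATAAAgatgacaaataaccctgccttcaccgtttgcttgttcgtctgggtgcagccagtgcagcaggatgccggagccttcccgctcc
Hist3h2a (chr11:58954435-58954734): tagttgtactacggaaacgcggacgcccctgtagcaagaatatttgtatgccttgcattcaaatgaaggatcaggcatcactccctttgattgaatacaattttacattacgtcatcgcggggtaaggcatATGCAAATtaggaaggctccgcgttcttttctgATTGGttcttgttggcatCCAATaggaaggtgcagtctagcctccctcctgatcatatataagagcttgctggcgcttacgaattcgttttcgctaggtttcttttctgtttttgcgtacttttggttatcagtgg
Hist1h2bg (chr13:23571150-23571449): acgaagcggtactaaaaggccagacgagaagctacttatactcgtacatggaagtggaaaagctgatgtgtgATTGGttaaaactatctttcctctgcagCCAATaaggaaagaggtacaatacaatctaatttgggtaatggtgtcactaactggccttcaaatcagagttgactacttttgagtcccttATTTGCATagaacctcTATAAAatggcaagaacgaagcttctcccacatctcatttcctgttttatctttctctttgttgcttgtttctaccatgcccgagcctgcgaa
Hist3h2ba holds CCAAT 4 times and TATAAA 2 times. Hist3h2a holds CCAAT 2 times and the octamer 1 time, and Hist1h2bg holds CCAAT 2 times and each of the other motifs 1 time. RefSeq promoters were matched for 62 members (63 promoters). CCAAT was in 85.7% of them, against 37.4% of all 32851 promoters, TATAAA in 55.6% against 13.6%, and ATTTGCAT in 22.2% against 1.74%. A match describes letters in this window and says nothing of a factor bound there.

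The libraries held 32117387 to 50445434 counts each. Levels are given as CPM, each count relative to its library's total scaled by a TMM factor, which corrects for library size and composition, and levels of different genes are compared as CPM per kb of the listed gene length. The threshold for calling a change was an adjusted p (Benjamini-Hochberg over 19289 tested genes) under 0.05 in edgeR's quasi-likelihood test. Every adjusted p below is from that test, and every log2 fold change carries its SE. Over all genes the groups differed widely: 38.6% of tested genes were called between Setd2 knockout and wild type. Of 9 markers of stem and progenitor cells, 0 were at 0. The same held for the markers of every other cell type read here, so it does not check the cell type label. The stem and progenitor markers summed to 505.1 to 520.9 CPM in double mutant, 666 to 690.4 in Srsf2 mutated, 1003 to 1019 in Setd2 knockout and 1025 to 1108 CPM in wild type libraries. Other cell types' markers were also present and differed by group. The 10 erythroid markers, none at 0, summed to 20080 to 21630 CPM in double mutant, 5735 to 7467 in Srsf2 mutated, 519.9 to 521.4 in Setd2 knockout and 178.8 to 180.6 CPM in wild type libraries. Early neutrophil markers (4, none at 0) ran the other way, at 6861 to 7015, 8770 to 10270, 13600 to 14700 and 24960 to 25290 CPM in the groups as just listed. Late neutrophil markers (6, none at 0) summed to 29560 to 30230, 13500 to 16880, 5790 to 6337 and 16300 to 22780 CPM in those groups. All 6 of them were called higher in double mutant libraries, against both Srsf2 mutated and Setd2 knockout libraries, and all 6 lower in Setd2 knockout against wild type. Eosinophil markers (4, none at 0) summed to 1520 to 1567, 1161 to 1406, 144.7 to 154.8 and 767.6 to 881 CPM, and B lymphoid markers (6, none at 0) to 214.5 to 228.2, 848.1 to 897.8, 58.5 to 60.83 and 57.05 to 73.95 CPM, in the same groups. Each of the 6 other lists, monocyte and macrophage the highest, summed to at most 1737 CPM in any library. Sex-linked genes differed with the genotype too: the Y-linked gene Ddx3y averaged 123.6 CPM in double mutant and 111.2 CPM in Srsf2 mutated libraries and was at 0 in Setd2 knockout and wild type libraries, and Xist averaged 7.405, 1.783, 0.5982 and 485.5 CPM in the 4 groups in turn. These differences and the genotype cannot be told apart. The part of the cell-type differences in the histone results was not tested, and in bulk samples fewer cells of a type and less RNA per cell cannot be told apart. Whole-gene counts do not check the genotypes: Setd2 averaged 221.7 CPM in Setd2 knockout and 151.7 CPM in wild type libraries, and Srsf2 averaged 231.2 CPM in Srsf2 mutated and 263.4 CPM in wild type libraries. Where Srsf2 was mutated the direction of the Setd2 level was the opposite, with 130.4 CPM in double mutant and 197.1 CPM in Srsf2 mutated libraries. Srsf2 averaged 223.4 CPM in double mutant and 323.4 CPM in Setd2 knockout libraries.

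Histone genes as a whole made up a small share of each library, 0.0543% to 0.0556% of counts in double mutant, 0.0516% to 0.0602% in Srsf2 mutated, 0.0234% to 0.024% in Setd2 knockout and 0.0288% to 0.0309% in wild type libraries. Their summed level was 571.3 ± 9.53 CPM in double mutant (SD, n = 3), 532.7 ± 55.5 in Srsf2 mutated (n = 3), 217.3 ± 4.76 in Setd2 knockout (n = 2) and 318.3 ± 17.2 CPM in wild type libraries (n = 2). The sums of double mutant and Srsf2 mutated libraries overlapped, and both lay above every library with normal Srsf2. From the highest group mean to the lowest the order was double mutant, Srsf2 mutated, wild type and Setd2 knockout, though the overlap leaves the first 2 unresolved. The eosinophil marker sums had this order too, but the stem and progenitor, erythroid, early neutrophil, late neutrophil and B lymphoid sums did not. The part of any of these cell types in the result was not tested. The linker histone Hist1h1c (RefSeq H1f2, chr13:23738808-23740367, plus strand) was the most abundant member. It held 53.6% to 55.7% of all histone counts in double mutant and 49.4% to 51.1% in Srsf2 mutated libraries, against 23.3% to 25.1% in Setd2 knockout and 29.8% to 30.0% in wild type libraries. Srsf2 mutated replicate 3 was the highest library of its group in 28 of 53 tested members, and wild type replicate 2 in 38 of 53. Without Hist1h1c the other 69 members summed to 259.3 ± 2.75 CPM in double mutant, 264.3 ± 26.8 in Srsf2 mutated, 164.6 ± 0.817 in Setd2 knockout and 223.2 ± 11.6 CPM in wild type libraries. Srsf2 mutated libraries then ran from 243.7 to 294.6 CPM, around the double mutant libraries at 257.3 to 262.4 CPM. The order of these 2 groups was not resolved.

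**Figure D1:**
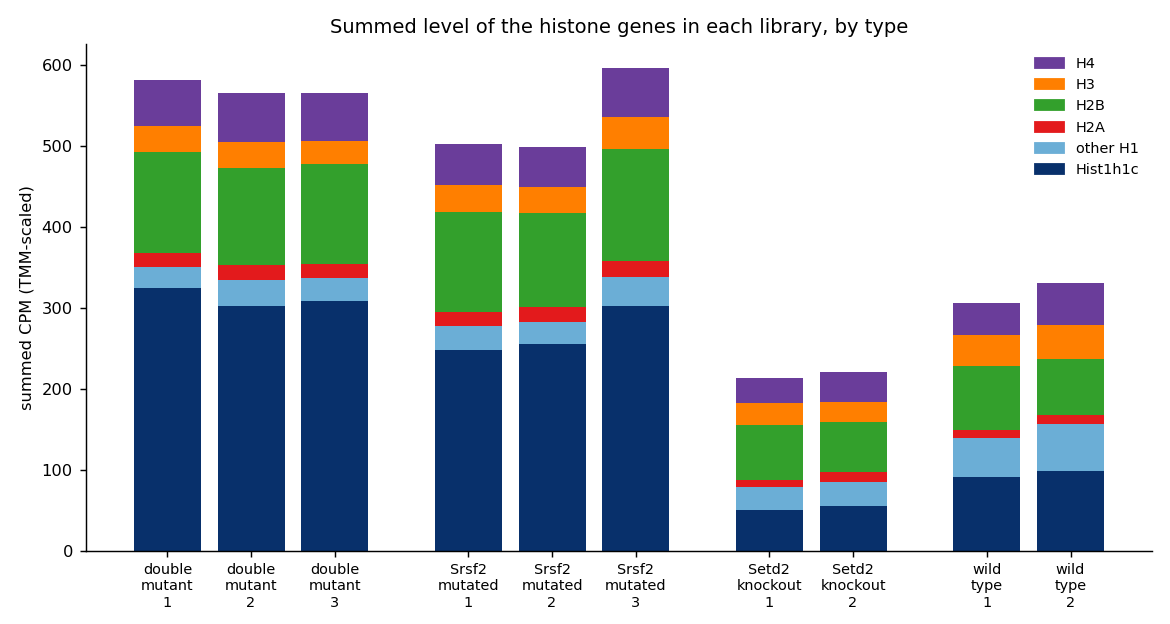
Summed TMM-scaled CPM of the histone genes in each library (stacked bars from 0), split into Hist1h1c, the other H1 genes, H2A, H2B, H3 and H4. Hist1h1c alone reaches 248.0 to 324.3 CPM in the 6 libraries with mutated Srsf2 and 49.88 to 99.09 CPM in the 4 others.

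Per kb of listed length, Hist1h1c was also the highest member, at a mean of 130.6 CPM per kb over the 10 libraries. The next were Hist1h4i, an H4 gene, at 42.93, and the H2B genes Hist1h2bg at 37.23 and Hist1h2bc at 30.88 CPM per kb. Leading members of the other types were lower: Hist1h1b (H1) reached 10.76, Hist1h3i (uncertain) and Hist1h3c (H3) 9.89 and 8.494, Hist1h4n (H4, uncertain) 8.192, and Hist1h2ac and Hist3h2a (H2A) 2.913 and 1.74 CPM per kb. Among tested members, 6 averaged at least 10 CPM and 15 under 1 CPM.

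Setd2 knockout libraries against wild type libraries gave mostly lower histone levels. Of 53 tested members, 14 fell and 2 rose, and the log2 fold change was below 0 in 43. The share called, 30.2%, was under that over all tested genes (38.6%, with 18.7% higher and 19.9% lower). The median member stood at -0.62 on the log2 scale, and the median gene at 0.04. The groups did not overlap in 66.0% of members and in 73.1% of all tested genes. With upper-quartile scaling the members split into 3 higher and 13 lower, and 59.5% of all called genes were higher in place of 48.4%. Leaving out wild type replicate 2, which leaves 1 library in that group, gave a median of -0.47.

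By type, the fall took in 4 of 5 H1 genes, 5 of 16 H2B, 4 of 10 H3 and 1 of 12 H4, while no H2A gene was called lower and 1 of 10 rose. The H2A genes had a median of -0.83, with 7 of 10 below 0, beside -0.85 for H1, -0.51 for H2B, -0.77 for H3 and -0.58 for H4. Most of the tested H2A genes averaged under 1 CPM, so their median rests on low counts. Summed H2A levels overlapped, at 7.972 and 11.36 CPM in Setd2 knockout and 10.63 and 11.08 CPM in wild type libraries. Hist1h1c measured 49.88 and 55.46 CPM in Setd2 knockout libraries, against 91.13 and 99.09 CPM in wild type libraries (log2 fold change -0.85 ± 0.0974, adjusted p = 5.69e-06). Hist1h1b (H1f5), another linker histone, measured 6.416 and 6.729 CPM in Setd2 knockout libraries, against 13.88 and 13.95 CPM in wild type libraries (-1.08 ± 0.165, adjusted p = 9.5e-05). The groups did not overlap for either gene, and wild type libraries were the higher. Of the core histones, Hist1h2bn (H2B, uncertain) measured 1.253 and 1.291 CPM in Setd2 knockout libraries, against 3.152 and 3.175 CPM in wild type libraries (-1.31 ± 0.272, adjusted p = 0.00128). Hist1h3c (H3) measured 4.278 and 4.507 CPM in Setd2 knockout libraries, against 8.186 and 9.267 CPM in wild type libraries (-0.99 ± 0.21, adjusted p = 0.00155). These 4 genes were called under every alternative setting, as was the H2B gene Hist1h2bj (-1.02 ± 0.265, adjusted p = 0.00635).
Another H2B gene, the uncertain Hist1h2bk, also fell, with a log2 fold change of -1.02 ± 0.327 (adjusted p = 0.0225). Its adjusted p was 0.1 and 0.118 without Setd2 knockout replicate 1 and 2, and 0.0559 and 0.113 without wild type replicate 1 and 2. Hist1h3i (H3, uncertain) behaved likewise, at -0.93 ± 0.303 (adjusted p = 0.0243), with 0.0536 and 0.158 without Setd2 knockout replicate 1 and 2 and 0.0694 and 0.0943 without wild type replicate 1 and 2. The H2B gene Hist1h2bc was lower at 15.99 and 14.94 CPM in Setd2 knockout libraries, against 26.37 and 18.39 CPM in wild type libraries (-0.53 ± 0.145, adjusted p = 0.00845). That call was lost without Setd2 knockout replicate 2 (adjusted p = 0.0649) or wild type replicate 1 (0.195). In all, 9 of the 16 calls held in each of the 17 alternative settings.

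The 2 members that rose were Hist3h2a and Hist1h2bg, and both were called in every alternative. Hist3h2a (H2A, chr11:58954685-58956830, plus strand) measured 1.988 and 2.328 CPM in Setd2 knockout libraries, against 0.8939 and 1.223 CPM in wild type libraries (1.03 ± 0.246, adjusted p = 0.00372). It overlaps the gene Trim17 on its own strand. Hist1h2bg (H2B, chr13:23571396-23572013, plus strand) measured 20.33 and 19.34 CPM in Setd2 knockout libraries, against 10.19 and 8.797 CPM in wild type libraries (1.06 ± 0.134, adjusted p = 1.61e-05). Neither gene's groups overlapped.

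The largest fall belonged to Hist1h4m, an H4 gene, and is uncertain. It had 12 and 1 counts in Setd2 knockout libraries, against 174 and 222 counts in wild type libraries (log2 fold change -5.03 ± 0.584, adjusted p = 6.72e-06). Only 11.9% of the 100-base words of its transcript occur in no other transcript, and 19.3% of those of its near copy Hist1h4n, whose log2 fold change was 0.31 ± 0.353 (adjusted p = 0.52). Summed over both genes the level was 4.431 ± 0.706 CPM in Setd2 knockout and 8.115 ± 1.96 CPM in wild type libraries (SD, n = 2 each). The part that the assignment of shared reads had in the fall of Hist1h4m was not tested.

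**Figure D2:**
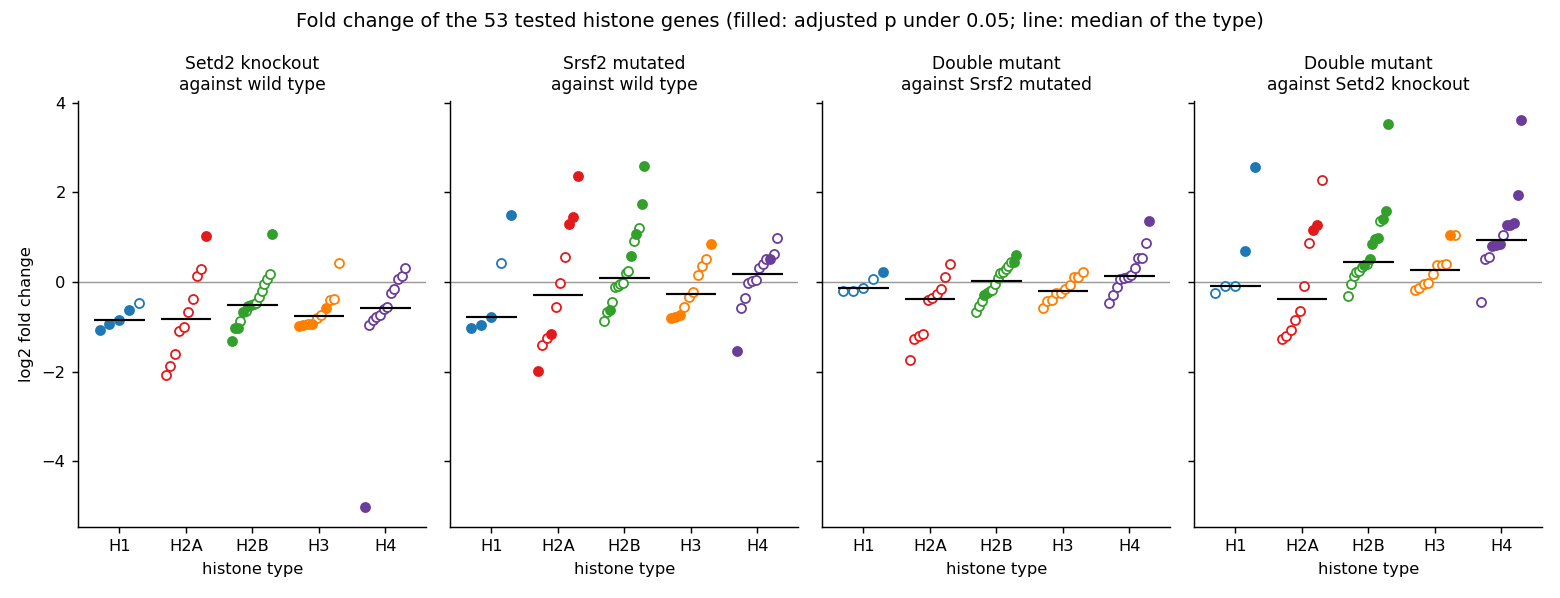
Log2 fold change of each of the 53 tested histone genes in 4 comparisons, by histone type. Filled points have an adjusted p under 0.05 and lines mark the type's median. In Setd2 knockout against wild type the medians of H1, H2A, H2B, H3 and H4 are -0.85, -0.83, -0.51, -0.77 and -0.58, and the H4 median is 0.94 in double mutant against Setd2 knockout.

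Srsf2 mutated libraries against wild type libraries split the family. Of 53 tested members 10 rose and 10 fell (37.7% called), under the 56.3% called over all tested genes (28.5% higher, 27.8% lower). Their median was -0.02, which flipped to 0.08 with upper-quartile and 0.01 with median-of-ratios scaling and to 0.17 with the stricter filter on low counts, and the median gene stood at 0.08. By type, 1 H1 gene rose and 3 fell, 3 H2A rose and 2 fell, 4 H2B rose and 1 fell, 1 H3 rose and 3 fell, and 1 H4 rose and 1 fell. The groups did not overlap in 58.5% of members and in 66.5% of all tested genes. This comparison shares its wild type libraries with that of Setd2 knockout, so the fold changes of both rest in part on the same values.

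The linker histones moved apart from each other. Hist1h1c measured 248.0, 255.0 and 302.1 CPM in Srsf2 mutated libraries, against 91.13 and 99.09 CPM in wild type libraries (1.5 ± 0.0916, adjusted p = 1.77e-09). Each Srsf2 mutated library lay above both wild type libraries. Hist1h1b went the other way, with 6.19, 7.405 and 6.809 CPM in Srsf2 mutated libraries, against 13.88 and 13.95 CPM in wild type libraries (-1.03 ± 0.147, adjusted p = 2.15e-05). Hist1h1d (H1f3) fell with it, at 11.59, 8.03 and 12.3 CPM in Srsf2 mutated libraries, against 18.8 and 22.93 CPM in wild type libraries (-0.97 ± 0.158, adjusted p = 7.41e-05). Without Hist1h1c, the H1 genes summed to 31.14 ± 4.76 CPM in Srsf2 mutated libraries (SD, n = 3) and 52.67 ± 6.58 CPM in wild type libraries (SD, n = 2).

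Of the core histones, the pair on chromosome 11 rose most. Hist3h2ba (H2B, chr11:58948920-58949533, plus strand) measured 7.097, 5.589 and 6.783 CPM in Srsf2 mutated libraries, against 0.8704 and 1.294 CPM in wild type libraries (2.58 ± 0.255, adjusted p = 4.1e-07). Hist3h2a measured 4.807, 5.73 and 5.796 CPM in Srsf2 mutated libraries, against 0.8939 and 1.223 CPM in wild type libraries (2.36 ± 0.228, adjusted p = 3.21e-07). In each gene the lowest Srsf2 mutated library exceeded the highest wild type library. The pseudogene Hist3h2bb-ps, the third Hist3 member, had 1.088, 0.5448 and 0.5821 CPM in Srsf2 mutated and 0.3293 and 0.3058 CPM in wild type libraries (1.21 ± 0.575, adjusted p = 0.0853).

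On chromosome 13, Hist1h2bg measured 31.88, 28.51 and 34.04 CPM in Srsf2 mutated libraries, against 10.19 and 8.797 CPM in wild type libraries (1.73 ± 0.127, adjusted p = 1.38e-08). Hist1h2ac (H2A, chr13:23681467-23683948) and Hist1h2bc (H2B, chr13:23684199-23692908), neighbours of each other in the annotation, both rose. The gene beside Hist1h2bg is Hist1h2ae (chr13:23570517-23571220), which fell on few counts, as given below. Hist1h2ac measured 8.503, 9.705 and 9.162 CPM in Srsf2 mutated libraries, against 4.187 and 3.246 CPM in wild type libraries (1.30 ± 0.157, adjusted p = 3.86e-06). Hist1h2bc measured 45.8, 42.86 and 53.81 CPM in Srsf2 mutated libraries, against 26.37 and 18.39 CPM in wild type libraries (1.08 ± 0.132, adjusted p = 4.13e-06). The most abundant H4 gene, Hist1h4i, rose less, with 32.79, 33.86 and 40.85 CPM in Srsf2 mutated libraries, against 22.84 and 27.24 CPM in wild type libraries (0.52 ± 0.115, adjusted p = 0.00123). None of these groups overlapped, which held for 66.5% of all tested genes. Hist1h3c and Hist1h3e (H3) fell, at -0.74 ± 0.188 and -0.80 ± 0.181 (adjusted p = 0.0032 and 0.00145), and the uncertain Hist1h3i did not pass (0.35 ± 0.267, adjusted p = 0.28).

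Several low members also passed, on few counts. Hist1h2ad (H2A, uncertain) measured 1.361, 1.675 and 0.8859 CPM in Srsf2 mutated libraries, against 0.5175 and 0.4469 CPM in wild type libraries (1.44 ± 0.513, adjusted p = 0.0259). Its call was lost without Srsf2 mutated replicate 1 or 2 (adjusted p = 0.0503 and 0.073) and without wild type replicate 1 or 2 (0.0899 and 0.131). Hist1h2ak (H2A) fell by 1.99 (SE 0.685, adjusted p = 0.0218), which was lost without Srsf2 mutated replicate 1 (0.0625), Srsf2 mutated replicate 2 (0.0557) or wild type replicate 1 (0.303). Hist1h2ae (H2A) fell by 1.16 (SE 0.47, adjusted p = 0.0465), with 0.475 without wild type replicate 2, 0.12 and 0.0706 without Srsf2 mutated replicate 1 and 2, and 0.0574, 0.0566 and 0.0557 without double mutant replicate 1, 2 and 3. In all, 11 of 17 alternatives ended that call. Hist1h4m fell by 1.53 (SE 0.394, adjusted p = 0.00365) and is uncertain as above. Of the 20 calls, 14 held in each alternative setting.

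**Figure D3:**
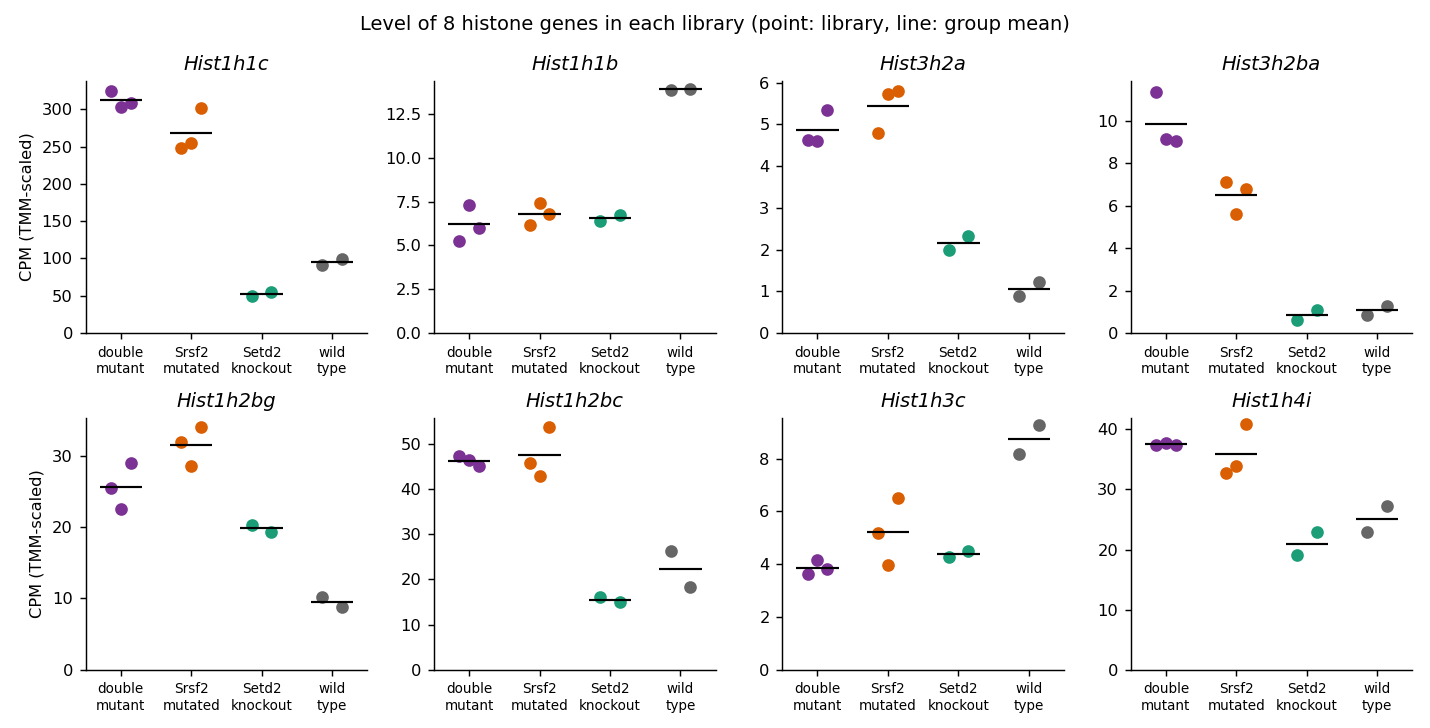
TMM-scaled CPM of 8 histone genes in each library, with the double mutant on the left and the wild type on the right. Points are libraries, lines are group means, and each axis starts at 0. Hist1h1c, Hist3h2a, Hist3h2ba, Hist1h2bg, Hist1h2bc and Hist1h4i are higher in the 6 libraries with mutated Srsf2, and Hist1h1b and Hist1h3c are highest in the 2 wild type libraries.

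Double mutant libraries against Setd2 knockout libraries ask for the effect of the Srsf2 mutation where Setd2 is lost, and share no library with the comparison just described. All 20 called members were higher and 0 lower. The 20 were 37.7% of 53 members, where 26.0% of all tested genes were called higher and 25.8% lower (51.8% in all). The median member stood at 0.51 and the median gene at 0.01, and 37 members lay above 0. The groups did not overlap in 62.3% of members and in 73.5% of all tested genes. By type, 2 of 5 H1, 2 of 10 H2A, 8 of 16 H2B, 1 of 10 H3 and 7 of 12 H4 genes rose. Without Setd2 knockout replicate 1, which leaves 1 library in that group, the median was 0.61. Of the 20 calls, 10 held in each alternative setting. Fitted on the libraries of these 2 groups alone, 24 members were higher and 1, the uncertain Hist1h4n, lower (log2 fold change in the joint fit -0.45 ± 0.321, adjusted p = 0.265).

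Hist1h1c measured 324.3, 303.0 and 309.0 CPM in double mutant libraries, against 49.88 and 55.46 CPM in Setd2 knockout libraries (2.57 ± 0.0968, adjusted p = 3.19e-12). The linker histone Hist1h1b did not pass, at 5.281, 7.326 and 5.997 CPM in double mutant and 6.416 and 6.729 CPM in Setd2 knockout libraries (-0.08 ± 0.154, adjusted p = 0.699). The 2 groups overlapped in Hist1h1b and lay far apart in Hist1h1c. Hist3h2ba measured 11.34, 9.141 and 9.057 CPM in double mutant libraries, against 0.6049 and 1.10 CPM in Setd2 knockout libraries (3.52 ± 0.263, adjusted p = 1.39e-08). Its neighbour Hist3h2a measured 4.629, 4.614 and 5.335 CPM in double mutant libraries, against 1.988 and 2.328 CPM in Setd2 knockout libraries (1.17 ± 0.208, adjusted p = 0.000184). Both chromosome 11 genes were higher with mutated Srsf2 also where Setd2 was lost.
Hist1h2bc measured 47.2, 46.47 and 45.12 CPM in double mutant libraries, against 15.99 and 14.94 CPM in Setd2 knockout libraries (1.58 ± 0.136, adjusted p = 7.5e-08). Hist1h2ac rose by 1.26 ± 0.155 (adjusted p = 4.3e-06) and Hist1h4i by 0.84 ± 0.116 (adjusted p = 1.55e-05). Hist1h2bg differed less, with 25.46, 22.57 and 28.97 CPM in double mutant libraries, against 20.33 and 19.34 CPM in Setd2 knockout libraries (0.37 ± 0.118, adjusted p = 0.0149). Its call was lost without double mutant replicate 3 (adjusted p = 0.0782) or Setd2 knockout replicate 1 or 2 (0.0939 and 0.171).

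The H4 gene Hist4h4 (chr6:136801553-136804415, minus strand), which stands alone outside the clusters, measured 2.412, 2.952 and 3.04 CPM in double mutant libraries, against 0.5833 and 0.8887 CPM in Setd2 knockout libraries (1.93 ± 0.352, adjusted p = 0.000237). Hist1h2bp (H2B) rose by 1.41 ± 0.412 (adjusted p = 0.00908), a call lost without Setd2 knockout replicate 1 (adjusted p = 0.11). Hist1h3i (uncertain), the only H3 gene called, measured 5.541, 3.805 and 3.722 CPM in double mutant libraries, against 2.355 and 1.862 CPM in Setd2 knockout libraries (1.04 ± 0.283, adjusted p = 0.00578), and was lost without Setd2 knockout replicate 2 (0.0842). The uncertain Hist1h4m gave 3.61 ± 0.571 (adjusted p = 5.89e-05), with 4.882 ± 0.0238 CPM in double mutant (SD, n = 3) and 4.431 ± 0.706 CPM in Setd2 knockout libraries (SD, n = 2) when summed with Hist1h4n.

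Set side by side, the Srsf2 effects with Setd2 lost and with Setd2 normal had the same sign in 42 of 53 members (79.2%), against 71.4% of all tested genes. They rest on different libraries. By location, in Srsf2 mutated against wild type 1 member rose and 4 fell of the 19 tested in the first block of chromosome 13, 7 rose and 6 fell of the 26 tested in the second, and 2 of 3 rose on chromosome 11. In double mutant against Setd2 knockout, 5, 11 and 2 rose in these places and 0 fell.

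Double mutant libraries against Srsf2 mutated libraries ask for the effect of Setd2 loss where Srsf2 is mutated. Of 53 members 4 rose and 1 fell, 9.43% in all, against 33.8% of all tested genes (17.8% higher, 15.9% lower). With upper-quartile scaling 3 rose and 3 fell. The groups did not overlap in 13.2% of members and in 45.4% of all tested genes. The median member stood at -0.12 and the median gene at 0.00, but with the stricter filter on low counts, which tests fewer members, the median member stood at 0.03. Without double mutant replicate 1, double mutant replicate 2 or Srsf2 mutated replicate 1, 2 members were called. Of all tested genes, 27.9%, 28.2% and 32.2% were then called. Without Srsf2 mutated replicate 2, 7 members were called, 3 higher and 4 lower, against 34.5% of all tested genes.

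Hist4h4 was the member whose call held in each of the 17 alternative settings. It measured 2.412, 2.952 and 3.04 CPM in double mutant libraries, against 0.9297, 1.352 and 0.9618 CPM in Srsf2 mutated libraries (1.37 ± 0.296, adjusted p = 0.00179). Hist3h2ba measured 11.34, 9.141 and 9.057 CPM in double mutant libraries, against 7.097, 5.589 and 6.783 CPM in Srsf2 mutated libraries (0.60 ± 0.187, adjusted p = 0.0208). Every double mutant library was above every Srsf2 mutated library in these 2 genes. The call of Hist3h2ba was lost without double mutant replicate 1 (adjusted p = 0.109) or Srsf2 mutated replicate 2 (0.0665). Hist2h2be (H2B) measured 12.32, 13.32 and 10.77 CPM in double mutant libraries, against 7.596, 10.15 and 8.833 CPM in Srsf2 mutated libraries (0.45 ± 0.135, adjusted p = 0.0165). It was lost without double mutant replicate 1 or 2 (0.051 and 0.0825) or Srsf2 mutated replicate 1 (0.121). Hist1h1c differed by 0.22 ± 0.0773 (adjusted p = 0.0399), with 324.3, 303.0 and 309.0 CPM in double mutant and 248.0, 255.0 and 302.1 CPM in Srsf2 mutated libraries.
That call was lost without double mutant replicate 1, 2 or 3 (0.148, 0.0674 and 0.0877), without Srsf2 mutated replicate 1 or 2 (0.307 and 0.105), without Setd2 knockout replicate 1 or 2 (0.103 for each), with upper-quartile scaling (0.118), and with only the 2 groups fitted (0.0625). Its lowest double mutant library stood just above the highest Srsf2 mutated library. Hist1h2bg fell, at -0.29 ± 0.104 (adjusted p = 0.0397), with 25.46, 22.57 and 28.97 CPM in double mutant and 31.88, 28.51 and 34.04 CPM in Srsf2 mutated libraries, and the groups overlapped. Its call was lost without double mutant replicate 1 or 2 (0.106 and 0.192) or Srsf2 mutated replicate 1 or 3 (0.0535 and 0.104).

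The Setd2 effects on the 2 Srsf2 backgrounds were then compared by an interaction term, the log2 fold change of double mutant over Srsf2 mutated minus that of Setd2 knockout over wild type. It was called in 12 of 53 members (22.6%), 10 above and 2 below 0, against 31.9% of all tested genes (16.7% above, 15.2% below). With upper-quartile scaling 37.6% of all called genes were above 0 in place of 52.4%, and 6 members were above and 2 below. The median member stood at 0.53 and the median gene at -0.07. Without double mutant replicate 2 the count was 6, against 28.6% of all tested genes. H1 was the type with most of its genes called, 4 of 5. Hist1h1c gave 1.07 ± 0.124 (adjusted p = 6.58e-06) and Hist1h1b 0.95 ± 0.214 (adjusted p = 0.00278): their Setd2 effects were 0.22 and -0.13 with mutated Srsf2, against -0.85 and -1.08 with normal Srsf2. The uncertain Hist1h2bn gave 1.59 ± 0.348 (adjusted p = 0.00223), with a Setd2 effect of 0.28 ± 0.217 (adjusted p = 0.365) where Srsf2 was mutated. The terms below 0 belonged to Hist1h2bg (-1.36 ± 0.17, adjusted p = 1.46e-05) and Hist3h2a (-1.19 ± 0.301, adjusted p = 0.00646), the genes that rose in Setd2 knockout against wild type. These 5 genes held in each alternative setting, as did the uncertain Hist1h4m (5.14 ± 0.694, adjusted p = 3.12e-05). The terms of Hist1h3g (H3) and Hist1h4d (H4) were 1.17 ± 0.382 and 1.10 ± 0.351 (adjusted p = 0.0279 and 0.0253). Hist1h3g lost its call without double mutant replicate 1 or 2 (0.0694 and 0.062), Srsf2 mutated replicate 1 (0.0688), Setd2 knockout replicate 1 (0.146) or wild type replicate 2 (0.11). Hist1h4d lost it without double mutant replicate 2 or 3 (0.0532 and 0.0641), Setd2 knockout replicate 1 or 2 (0.059 and 0.145) or wild type replicate 2 (0.12). The Setd2 effects with mutated and with normal Srsf2 had the same sign in 54.7% of members and 56.5% of all tested genes.

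**Figure D4:**
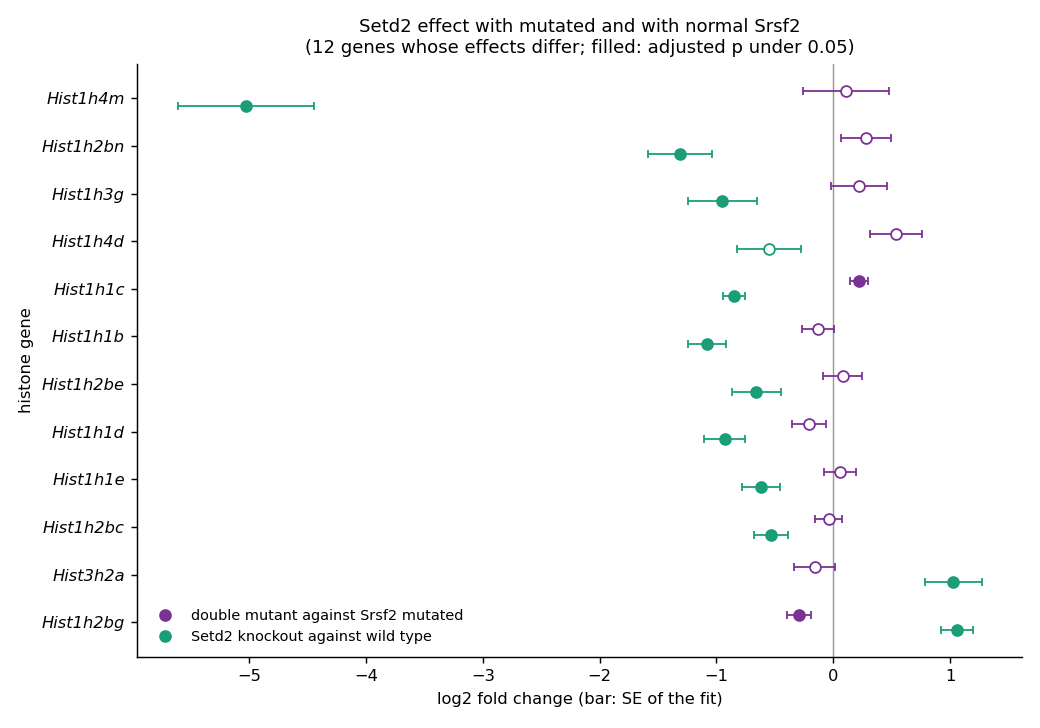
Log2 fold change with its SE for the 12 histone genes whose Setd2 effect differed between Srsf2 backgrounds, as double mutant against Srsf2 mutated (upper point) and Setd2 knockout against wild type (lower point). Filled points have an adjusted p under 0.05. Hist1h2bg and Hist3h2a stand at -0.29 and -0.16 with mutated Srsf2, and at 1.06 and 1.03 with normal Srsf2.

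Members were also grouped by the annotated end of their transcript, a grouping chosen after values had been seen and given as a description. In Srsf2 mutated against wild type, members whose transcript runs on for more than 100 bases past the stem-loop (21 tested) had a median log2 fold change of 0.51, with 8 higher and 4 lower. Those ending within 100 bases (18 tested) had a median of -0.10, with 1 higher and 3 lower. Those with no match (14 tested) had a median of -0.03 (0.06 with upper-quartile scaling), with 1 higher and 3 lower. The shares called in these 3 classes were 57.1%, 22.2% and 28.6%, against 56.3% of all tested genes, so the first class stood near the share of all genes. In double mutant against Setd2 knockout the medians were 0.83, 0.38 and 0.47, with 11, 5 and 4 higher and 0 lower in any class. The shares called were 52.4%, 27.8% and 28.6%, against 51.8% of all tested genes (26.0% higher, 25.8% lower). In Setd2 knockout against wild type the medians were -0.55, -0.86 and -0.51.
In summed CPM, which is not scaled for transcript length, most of the level lay with the first class. Listed lengths differ between the classes, with 7425 bases in Hist1h1d of the first class and 402 in Hist1h4m of the second. The sums therefore do not rank the classes by level per kb. Its 23 members summed to 450.8 ± 10.9 CPM in double mutant, 407.7 ± 38.6 in Srsf2 mutated, 143.2 ± 6.42 in Setd2 knockout and 200.8 ± 17.9 CPM in wild type libraries. The 23 members that end within 100 bases summed to 38.13 ± 1.64, 43.11 ± 9.8, 30.05 ± 1.28 and 53.11 ± 4.65 CPM in those groups. Without Hist1h1c the first class summed to 138.7 ± 2.23, 139.3 ± 9.46, 90.54 ± 2.48 and 105.7 ± 12.3 CPM. Type and end are not independent, and near copies are unevenly spread over the classes. The classes differ in summed CPM too, and the part of level or length in the number of calls was not tested.

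**Figure D5:**
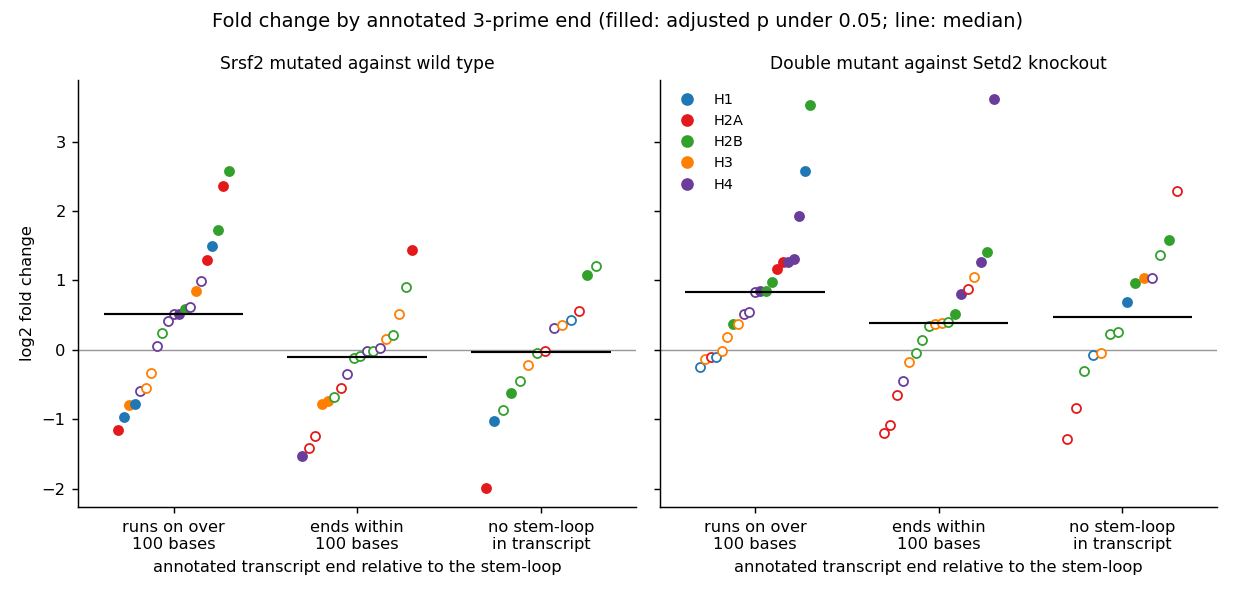
Log2 fold change of the tested histone genes by the annotated transcript end relative to the stem-loop, for the 2 comparisons of mutated against normal Srsf2. Points are coloured by type and filled at an adjusted p under 0.05, and lines are medians: 0.51, -0.10 and -0.03 on the left and 0.83, 0.38 and 0.47 on the right.

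Genes that make, process and use histone mRNA were read from lists, with p-values adjusted over all tested genes. For reading their counts, 18.7% of all tested genes were higher and 19.9% lower in Setd2 knockout against wild type, with 28.5% and 27.8% in Srsf2 mutated against wild type, 17.8% and 15.9% in double mutant against Srsf2 mutated, and 26.0% and 25.8% in double mutant against Setd2 knockout. The median gene stood at 0.04, 0.08, 0.00 and 0.01 in these 4 comparisons, and list medians are given in the same order. No difference between a list and the other genes was tested. SLBP's gene, Slbp, averaged 130.7 CPM in double mutant, 116.6 in Srsf2 mutated, 121.2 in Setd2 knockout and 124.9 CPM in wild type libraries and was called in no comparison (lowest adjusted p = 0.0975). Npat averaged 50.66, 61.61, 51.63 and 41.31 CPM in the same order. It rose in Srsf2 mutated against wild type (0.58 ± 0.117, adjusted p = 0.000574) and fell in double mutant against Srsf2 mutated (-0.28 ± 0.103, adjusted p = 0.0444). Of 12 genes of histone gene transcription, 4 rose and 2 fell in Setd2 knockout against wild type, 3 and 4 in Srsf2 mutated against wild type, 5 and 2 in double mutant against Srsf2 mutated, and 1 and 4 in double mutant against Setd2 knockout, with list medians of 0.17, -0.12, 0.06 and -0.13. E2f2, an E2F family transcription factor, averaged 361.6 CPM in double mutant, 161.5 in Srsf2 mutated, 48.41 in Setd2 knockout and 98.98 CPM in wild type libraries, and was called in all 4 comparisons.
Of 23 tested genes of histone mRNA 3′ processing and decay, 4 rose and 9 fell in Setd2 knockout against wild type, and 4 rose and 10 fell in Srsf2 mutated against wild type. In Srsf2 mutated against wild type, Lsm11, a protein of the U7 snRNP that cuts histone pre-mRNA, fell by 1.10 (SE 0.112, adjusted p = 5.66e-07), and Sympk, the scaffold symplekin, by 0.64 (SE 0.0641, adjusted p = 5.05e-07). Double mutant libraries gave 2 higher and 7 lower against Srsf2 mutated, and 6 higher and 10 lower against Setd2 knockout libraries. The list medians were -0.08, -0.14, -0.11 and -0.11. In double mutant against Setd2 knockout, Tut7, a terminal uridylyltransferase, rose by 1.16 ± 0.134 (adjusted p = 2.11e-06).
Of 19 polyadenylation genes, 6 rose and 3 fell in Setd2 knockout against wild type, 5 and 9 in Srsf2 mutated against wild type, 2 and 6 in double mutant against Srsf2 mutated, and 3 and 11 in double mutant against Setd2 knockout. The 11 were 57.9% of the list, and the list medians were -0.01, -0.16, -0.09 and -0.32. Some genes, Sympk among them, stand in both this list and the one before. Pabpn1, the nuclear poly(A) binding protein, rose by 1.59 ± 0.136 in Setd2 knockout and by 1.63 ± 0.128 in Srsf2 mutated libraries, each against wild type (adjusted p = 2.96e-07 and 2.99e-08).

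DNA replication genes work in the phase in which histones are made. Of 38 such genes, 3 rose and 19 fell in Setd2 knockout against wild type (median -0.19), 4 and 25 in Srsf2 mutated against wild type (-0.32), 4 and 20 in double mutant against Srsf2 mutated (-0.22), and 2 and 22 in double mutant against Setd2 knockout (-0.29). The lower genes were 50% of the list, 65.8%, 52.6% and 57.9% in that order, each above the share of all genes. Mcm5, a subunit of the replicative helicase, fell by 0.52 in the first (SE 0.0693, adjusted p = 2.66e-05), and the licensing factor Cdt1 fell by 0.85 in the second (SE 0.0639, adjusted p = 1.86e-08) and by 0.76 in the last (SE 0.0641, adjusted p = 6.2e-08). In the last comparison 20 histone genes rose and 0 fell. Of 24 mitosis genes, 2 rose and 11 fell in Setd2 knockout against wild type, 1 and 18 in Srsf2 mutated against wild type, 14 and 1 in double mutant against Srsf2 mutated, and 8 and 5 in double mutant against Setd2 knockout, with list medians of -0.20, -0.29, 0.24 and 0.12.
Of the 20 histone chaperones and their partners, 6 rose and 3 fell, 2 and 8, 1 and 5, and 0 and 9 in that order, with list medians of 0.00, -0.16, -0.09 and -0.20. Asf1b, a chaperone of H3 and H4, fell by 0.90 in Setd2 knockout (SE 0.083, adjusted p = 6.52e-07) and by 0.78 in Srsf2 mutated libraries (SE 0.0743, adjusted p = 2.56e-07), each against wild type.
Replication-independent variants are histones whose making is not confined to S phase. Of 12 listed, 1 rose and 9 fell in Setd2 knockout against wild type, and 5 and 3 in Srsf2 mutated against wild type. The counts were 2 and 7 in double mutant against Srsf2 mutated, and 5 and 1 in double mutant against Setd2 knockout. The list medians were -0.35, 0.24, -0.30 and 0.19. The H3.3 gene H3f3b rose by 1.36 ± 0.0795 in Srsf2 mutated against wild type and by 1.27 ± 0.0792 in double mutant against Setd2 knockout (adjusted p = 9.99e-10 and 1.59e-09). The linker variant H1fx fell by 1.88 (SE 0.187, adjusted p = 4.39e-07) and 1.82 (SE 0.197, adjusted p = 1.09e-06) in the same comparisons.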

How the data were processed

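Bulk RNA-seq of 10 mouse HSPC libraries in 4 genotype groups was analysed from 3 tables of read counts that the authors deposited. Per the file headers, the tables also hold FPKM and the authors' own comparisons, which were not used. The submitters' processing notes list HISAT2 2.0.5, STAR 2.6.1a, HTSeq 0.9.1, featureCounts 2.0.1 and DESeq2 1.22.2 without tying a tool to a step; strandedness and the treatment of reads with several matches are not given in the sources used here. The 5 libraries present in 2 tables had identical counts, and the tables were joined over 55421 genes, after 27 symbols turned into dates had been restored. No 2 libraries of a group agreed within sampling noise (chi-square per gene 5.41 to 45.2).

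Genes were filtered with filterByExpr of edgeR 4.0.16 (R 4.3.3), scaled by TMM, and fitted together in a quasi-likelihood model (10 libraries, 1 coefficient for each group). The model was also run on simulated data with 200 changed genes, in Setd2 knockout libraries only. Far more genes were called in the real data, so that run does not check the scaling. P-values were adjusted by Benjamini-Hochberg over 19289 tested genes at 0.05. Depth was 32117387 to 50445434 counts, and intervals beyond the replicate spread were not computed. Alternatives were other scalings, other filters (minimum count 50 or none), DESeq2 1.42.0, leaving out each library, a replicate block, only the 2 groups compared, and, chosen after seeing the data, only members with at least 50% unique 100-base words. Stem-loops and unique words came from GENCODE M21 transcripts, and promoters from RefSeq. Named were, per comparison, up to 6 called members of largest fold change in each direction, the 2 highest members of each type per kb, the Hist3 and Hist4 members, Slbp and Npat, and examples among the 3 called genes of smallest adjusted p of each list. Members and lists were chosen with earlier results of these data known. Same-numbered libraries were not paired.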

Additional observations from a re-analysis of the deposited data

Results flagged for a closer look

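The effect of Setd2 loss differed between cells with mutated and with normal Srsf2 in 12 of the 53 tested histone genes, by the interaction term of edgeR's quasi-likelihood test (adjusted p under 0.05), where 31.9% of all tested genes were called. On the log2 scale the difference was 5.14 in Hist1h4m, 1.59 in Hist1h2bn, 1.17 in Hist1h3g, 1.10 in Hist1h4d, 1.07 in Hist1h1c, 0.95 in Hist1h1b, 0.73 in Hist1h2be, 0.72 in Hist1h1d, 0.68 in Hist1h1e and 0.50 in Hist1h2bc. Values of Hist1h4m and Hist1h2bn are uncertain, since most of their transcripts' 100-base words also occur elsewhere. In these 10 genes Setd2 loss gave a lower level relative to its control with normal Srsf2 than with mutated Srsf2. The difference was -1.36 in Hist1h2bg and -1.19 in Hist3h2a, whose Setd2 effects were -0.29 and -0.16 with mutated Srsf2, against 1.06 and 1.03 with normal Srsf2. Hist1h2be and Hist1h1e overlap on the same strand, so their counts are not independent. Of the 12 calls, 6 held in each of the 16 alternative settings. Hist1h2be lost its call in 13 of them (adjusted p up to 0.263, without Setd2 knockout replicate 2) and Hist1h2bc in 10 (up to 0.385, without wild type replicate 1). Hist1h1d and Hist1h1e lost theirs in 5 each (up to 0.133 without wild type replicate 2, and up to 0.167 without Setd2 knockout replicate 1).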

How the results depend on the processing

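Of 73 calls of members over the 5 tests, none changed its sign in any alternative setting, 40 were called in every one and 33 lost the call in at least 1. Those 33 lost it in 163 recomputed values, 130 of them on leaving out a library. Leaving out each library in turn, the number of members called ran from 10 to 19 for Setd2 knockout against wild type, 15 to 21 for Srsf2 mutated against wild type, 2 to 7 for double mutant against Srsf2 mutated, 11 to 23 for double mutant against Setd2 knockout, and 6 to 18 for the interaction. The median log2 fold changes ran from -0.73 to -0.47, -0.17 to 0.11, -0.13 to -0.02, 0.46 to 0.61 and 0.41 to 0.62 in that order. With upper-quartile scaling, which moved the median gene to 0.13, 0.18, -0.05, -0.04 and -0.21, the medians over members were -0.53 for Setd2 knockout against wild type, 0.08 for Srsf2 mutated against wild type and 0.38 for the interaction. With the stricter filter, which tests fewer members, they were -0.53, 0.17, 0.03 and 0.65 in the first 4 comparisons. With no filter the last of these was 0.37. Over members with mostly unique words the Srsf2 mutated median was 0.15. The share of all tested genes called moved on leaving out a library too. In Setd2 knockout against wild type it was 46.1% without Srsf2 mutated replicate 3, in place of 38.6%. In double mutant against Srsf2 mutated it was 27.9% without double mutant replicate 1, in place of 33.8%. Leaving out a Setd2 knockout or wild type library left 1 library in that group. Fewer of all genes were then called in Setd2 knockout against wild type. Causes of these shifts were not tested.

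With the replicate number as a block, 17, 19, 6, 15 and 12 members were called, against 38.9%, 54.4%, 34.4%, 50.6% and 32.1% of all tested genes. Same-numbered libraries correlated at -0.127 to 0.146 in their deviations from group means, so the numbers were not taken as pairs. Low counts limit the H2A genes most, 10 of which were not tested.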
